A study of Mus musculus with 15 samples.

Results

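Nuclear-encoded subunits of the mitochondrial respiratory chain were examined in mouse skin with and without OTULIN in keratinocytes. Members were the genes whose symbol begins with Nduf followed by a, b, c, s or v, with Uqcr, with Cox4 to Cox8, or with Atp5. Of 55487 genes in the count table, 90 symbols matched, 89 remained without pseudogene symbols carrying "-ps", and 87 had at least 10 counts over the 15 libraries. The remaining 2, *Cox7b2* and *Cox8c*, were listed at 0. The members were 36 subunits of complex I, 8 of complex III, 17 of complex IV and 17 of complex V, and 9 proteins that are no stable subunits, namely the complex I assembly factors *Ndufaf1* to *Ndufaf8* and the supercomplex factor *Cox7a2l*. *Ndufa4* and *Ndufa4l2* were placed with complex IV. The symbol rule takes no complex II gene, and neither cytochrome c nor cytochrome c1.

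Gene expression was measured by QuantSeq 3′ mRNA sequencing of skin tissue from 3-week-old mice of the C57BL/6 background. There were 5 libraries from WT mice, 5 from non-lesional and 5 from lesional skin of OTULIN E-KO animals. The latter carry *loxP*-flanked *Otulin* alleles and *K14-Cre*, which acts in keratinocytes, whereas the WT mice were littermates that carry the same flanked alleles and lack Cre. Males and females were used, and whether lesional and non-lesional samples share mice is not given in the sources used here. Libraries are named by group and replicate number. Levels are given as CPM, counts scaled to the size of the library after TMM normalisation over the 15 libraries. Since a 3′ library gives about 1 read for each transcript whatever its length, levels of different genes were compared without a length correction.

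The respiratory chain passes electrons from NADH through complexes I, III and IV to oxygen and pumps protons across the inner mitochondrial membrane, and complex V, the ATP synthase, uses the resulting gradient to make ATP. Most subunits are encoded in the nucleus, and a small core is encoded by mitochondrial DNA. Several complex IV subunits exist as a widely expressed form and a form made in heart and skeletal muscle, and mouse skin contains the panniculus carnosus, a sheet of skeletal muscle.

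Total counts ran from 1962604 to 2567138 per library. *Otulin* had 12.2 to 28.2 CPM in WT, 21.2 to 30.7 CPM in non-lesional and 19.0 to 27.2 CPM in lesional libraries, and so did not separate the genotypes in whole skin. Keratinocyte markers summed to between 7392 and 13281 CPM, and 18 skeletal muscle markers to between 4693 and 45749 CPM. 3 libraries stood apart in ways that touch the members. WT 1 had hair follicle markers at 1278 CPM, against 21.5 to 143 CPM in the other WT libraries. Lesional 11 had the 4693 CPM of muscle markers, against at least 20316 CPM elsewhere, and lesional 14 differed from the other libraries by the GC content of its transcripts, as described further on. Of the lesional libraries, 2 and 11 carried the inflammatory markers, with 9402 and 27014 CPM of the keratins of hyperplastic epidermis against 241 to 418 CPM in the other lesional libraries. All p-values measure the spread between these libraries.

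No member passed the test in any of the 3 comparisons. The sum over all 87 members was 6921, 9188, 9010, 10060 and 8146 CPM in WT 1, 4, 7, 10 and 13. It was 9871, 9458, 7883, 9883 and 9258 CPM in non-lesional 3, 6, 9, 12 and 15, and 9033, 8949, 8874, 8530 and 11240 CPM in lesional 2, 5, 8, 11 and 14. The groups overlapped widely, with the lowest value in WT 1 and the highest in lesional 14. Mean sums were 8665 ± 1189 CPM in WT, 9270 ± 821 CPM in non-lesional and 9325 ± 1087 CPM in lesional skin (SD, n = 5 each). In bulk tissue, fewer cells of a type and less RNA per cell cannot be told apart.

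**Figure D1:**
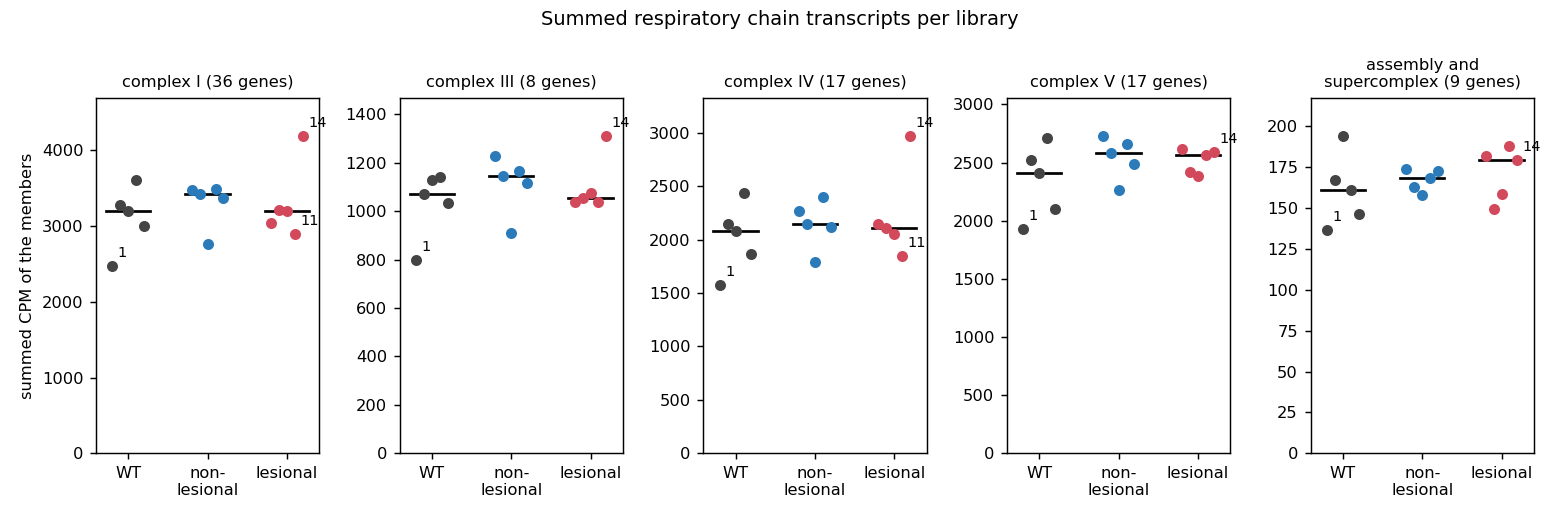
Summed CPM of the members of each complex (y axis, starting at 0) in the 15 libraries, by group (x axis). Each point is a library, black bars are group medians, and the numbers mark WT 1, lesional 14 and, for complexes I and IV, lesional 11. WT 1 is the lowest library in each panel, and lesional 14 the highest for complexes I, III and IV, at 4190, 1310 and 2968 CPM.

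Between non-lesional and WT skin, edgeR's quasi-likelihood test with Benjamini-Hochberg adjustment was run on 82 members within 13021 genes. At an adjusted p under 0.05 it called 0 members and 0% of all genes, and DESeq2 called 0 members and 1 of 27202 genes. At an unadjusted p under 0.05, 2 members were higher and 0 lower, where 1.85% of all genes were higher and 1.30% lower. The log2 fold change was above 0 for 61 of 82 members, against 49.5% of all genes, and its median was 0.082 over members and -0.0023 over all genes. Without WT 1 the members' median was 0.012, and without WT 10 it was 0.15.

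Between lesional and WT skin, edgeR called 0 of 82 members and 0% of 12918 genes at an adjusted p under 0.05, and DESeq2 called 0 members and 14 of 26979 genes. At an unadjusted p under 0.05, 0 members were higher, against 3.24% of all genes, and 0 lower, against 1.56%. No member's lesional values all lay above or all below the WT values, as they did for 0.441% and 0.248% of all genes. The log2 fold change was above 0 for 57 of 82 members, against 49.5% of all genes, with a median of 0.093 over members and -0.0034 over all genes. This median was 0.017 without WT 1 and 0.0090 without lesional 14.

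Between lesional and non-lesional skin, edgeR called 0 of 82 members and 0% of 12864 genes at an adjusted p under 0.05, DESeq2 called 0 members and 0 of 27308 genes, and 0 members had an unadjusted p under 0.05 in edgeR's test, where 2.89% of all genes were higher and 1.33% lower. For 0 members did the values of the 2 groups not overlap, against 0.295% of all genes with higher and 0.326% with lower lesional values. Here the log2 fold change was above 0 for 44 of 82 members, against 50.6% of all genes, with a median of 0.013 over members and 0.0030 over all genes. The sign of this median turned when lesional 14 (-0.083), non-lesional 9 (-0.061) or lesional 8 (-0.0027) was left out. The 3 comparisons share groups and are not independent of each other. The median standard error of a member's log2 fold change was 0.15, 0.18 and 0.17 in the 3 comparisons, so for single genes differences of that size lay within the error. The 5 members with too few counts for the test were *Atp5g1*, *Atp5g2*, *Cox4i2*, *Ndufs3* and *Ndufs5*.

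**Figure D2:**
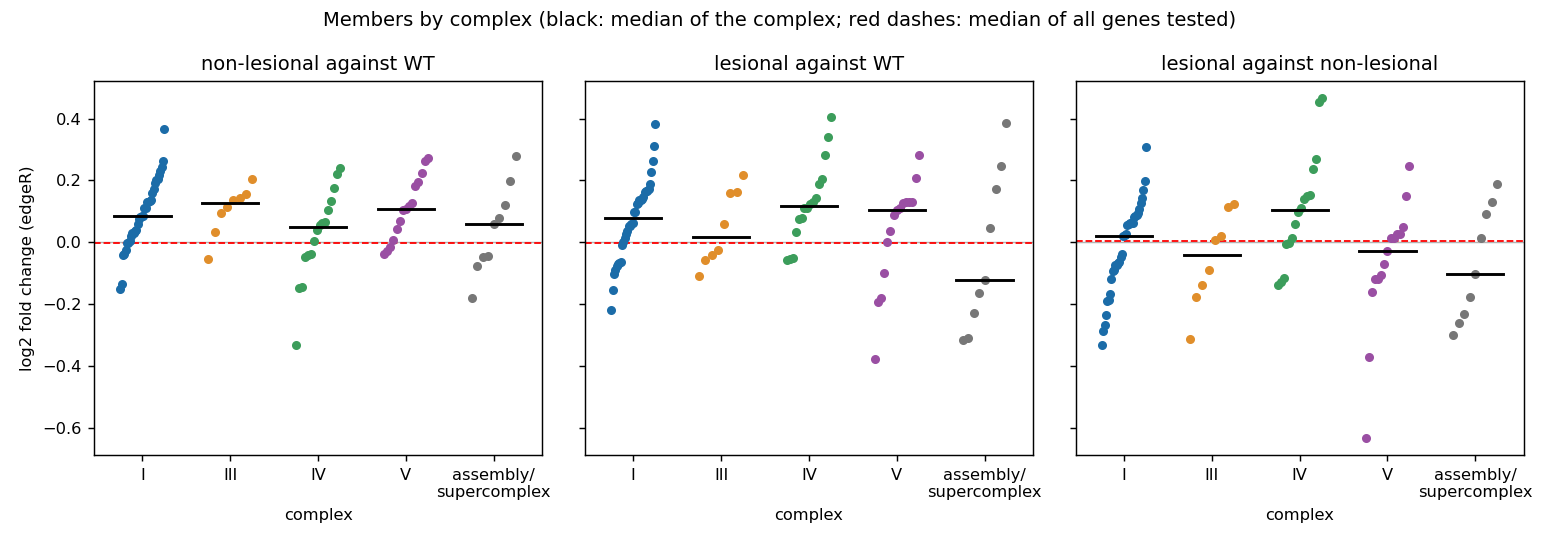
Log2 fold change (y axis) of each tested member, by complex (x axis), in the 3 comparisons. Points are genes, black bars the median of each complex and red dashes the median of all genes tested. Members lie between -0.63 and 0.47, and the medians of the complexes between -0.12 and 0.13.

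Complex I takes electrons from NADH. Its 36 members summed to 3113 ± 418 CPM in WT, 3303 ± 307 CPM in non-lesional and 3309 ± 509 CPM in lesional skin. The median log2 fold change over its 34 tested members was 0.084, 0.079 and 0.022 in the 3 comparisons, in the order given above. Levels of the members ran from 1.11 CPM for *Ndufs3* to 205 CPM for *Ndufa2*, as means of the 15 libraries. Of the catalytic core, which holds the flavin and the iron-sulphur clusters, *Ndufs1* had 108 CPM, *Ndufv1* 96.3, *Ndufv2* 83.5, *Ndufs7* 63.2 and *Ndufs8* 36.0 CPM. The level of *Ndufs3* cannot be set against these. It had 39 counts over all libraries, and 53.0% of its 3′ windows occur in other genes' transcripts, so its count is uncertain.

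The smallest p among all members was that of *Ndufa6* (ENSMUSG00000022450, an accessory subunit of complex I, GRCm38 chr15:82350140-82354322, minus strand). It had 136, 147, 161, 179 and 178 CPM in WT 1, 4, 7, 10 and 13, and 192, 189, 183, 199 and 199 CPM in non-lesional 3, 6, 9, 12 and 15. In lesional 2, 5, 8, 11 and 14 it had 150, 179, 153, 139 and 198 CPM. Every non-lesional library lay above every WT library, by as little as 183 against 179 CPM, and the lesional libraries spanned both groups. The log2 fold change of non-lesional against WT was 0.26 (standard error 0.10, edgeR adjusted p = 0.9998), and it was 0.21 without WT 1. It was the only member among 82 whose non-lesional values did not overlap with WT from above, as 0.392% of all genes did, and for 0 members did they lie wholly below, against 0.269% of all genes. Lesional against non-lesional skin gave -0.23 (standard error 0.12, edgeR adjusted p = 0.97).

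*Ndufb6*, an accessory subunit of the membrane arm of complex I, was the other member with an unadjusted p under 0.05 between non-lesional and WT skin. It had 31.1 ± 6.8 CPM in WT, 40 ± 7.1 CPM in non-lesional and 40.6 ± 6.2 CPM in lesional skin (SD, n = 5 each). WT 1, at 21.7 CPM, was its lowest library, and the groups overlapped. Against WT, the fitted log2 differences were 0.37 (standard error 0.17, edgeR adjusted p = 0.9998) in non-lesional and 0.38 (standard error 0.18, edgeR adjusted p = 0.93) in lesional skin. Without WT 1 they were 0.26 and 0.28. Between lesional and non-lesional skin, the smallest p of any member was that of *Ndufa8*, an accessory subunit of complex I. It had 95.3, 90.1, 76.6, 101 and 94.3 CPM in non-lesional 3, 6, 9, 12 and 15, and 89.4, 71.3, 65.2, 84.2 and 64.6 CPM in lesional 2, 5, 8, 11 and 14. The groups overlapped, and WT libraries had 65.6 to 87.3 CPM. The estimate was -0.29 (standard error 0.14, edgeR adjusted p = 0.97). *Ndufs6*, an accessory subunit, had 99.0 ± 25.3 CPM in WT, 99.2 ± 22.7 CPM in non-lesional and 123 ± 29 CPM in lesional skin, with overlapping values. The largest estimate below 0 within complex I was -0.33 for *Ndufa1*, between lesional and non-lesional skin, with 20.4 CPM in lesional 14 against 39.1 to 54.9 CPM in the other lesional libraries, and it was -0.16 without lesional 14.

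Complex III passes electrons from ubiquinol to cytochrome c. Its 8 members summed to 1034 ± 139 CPM in WT, 1111 ± 121 CPM in non-lesional and 1103 ± 116 CPM in lesional skin. The most abundant was *Uqcrh*, the hinge protein near the cytochrome c1 site, at 410 CPM, and the least abundant *Uqcrb* at 23.4 CPM, a count that is uncertain since 40.6% of its 3′ windows occur in other genes' transcripts. The core proteins *Uqcrc1* and *Uqcrc2* had 76.2 and 200 CPM. *Uqcrfs1*, the Rieske iron-sulphur protein, had 106 to 138 CPM in non-lesional libraries, and 113, 114, 119, 98.8 and 59.7 CPM in lesional 2, 5, 8, 11 and 14. Its log2 fold change between lesional and non-lesional skin was -0.31 (standard error 0.17, edgeR adjusted p = 0.97), and -0.17 without lesional 14. *Uqcrq*, a small subunit of the complex, had 94.7 CPM in WT 1 and 103 CPM in lesional 11 against 124 to 183 CPM elsewhere, and its log2 differences from WT were 0.16 in non-lesional and 0.16 in lesional skin (edgeR adjusted p = 0.9998 and 0.94). Without WT 1 they were 0.06 and 0.07. Median log2 fold changes of the complex were 0.13, 0.016 and -0.041.

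Complex IV reduces oxygen to water. Its 17 members summed to 2021 ± 321 CPM in WT, 2146 ± 226 CPM in non-lesional and 2226 ± 431 CPM in lesional skin, and their median log2 fold changes were 0.048, 0.12 and 0.10. The most abundant was *Cox6a2*, at a mean of 426 CPM, the muscle form of a subunit whose widely expressed form is *Cox6a1*. Of the counts of this pair, *Cox6a2* took 58.5% to 74.2% in WT, 58.6% to 71.0% in non-lesional and 20.8% to 78.0% in lesional libraries. The lowest share was that of lesional 11 (20.8%, 95% Wilson interval 18.2% to 23.6%), and the other lesional libraries began at 55.1%. The 2 further muscle forms were the lesser partner or near parity in WT, where *Cox7a1* took 26.6% to 41.3% of its pair with *Cox7a2*, and *Cox8b* took 43.2% to 57.8% of its pair with *Cox8a*. In lesional 11 these shares were 11.7% and 15%. The intervals cover counting error only.

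The sequences around the starts of 2 muscle forms and 2 widely expressed partners are shown because the muscle forms and their partners varied differently between the libraries. Each runs from 250 bases before to 50 bases after the gene's start on the gene's strand, from RefSeq for GRCm38.p6, and *Cox6a2* is named only. The positions are chr5:115348909-115349208 (minus strand) for *Cox6a1*, chr7:30183921-30184220 (plus strand) for *Cox7a1*, chr19:7217567-7217866 (minus strand) for *Cox8a* and chr7:140900397-140900696 (minus strand) for *Cox8b*. Capitals mark matches to the letters of the NRF1 motif (GCGCATGCG) in *Cox6a1*, where overlapping matches on both strands form 1 run, and of the GABPA motif (CCGGAAGT, here on the opposite strand) in *Cox8a*.
Cox6a1: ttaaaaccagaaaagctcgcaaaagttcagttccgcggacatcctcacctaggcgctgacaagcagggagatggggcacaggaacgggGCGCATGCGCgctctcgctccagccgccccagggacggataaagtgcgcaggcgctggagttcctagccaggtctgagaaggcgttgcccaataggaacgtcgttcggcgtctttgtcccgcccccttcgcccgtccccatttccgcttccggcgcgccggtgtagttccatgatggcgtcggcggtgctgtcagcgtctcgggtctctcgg
Cox8a: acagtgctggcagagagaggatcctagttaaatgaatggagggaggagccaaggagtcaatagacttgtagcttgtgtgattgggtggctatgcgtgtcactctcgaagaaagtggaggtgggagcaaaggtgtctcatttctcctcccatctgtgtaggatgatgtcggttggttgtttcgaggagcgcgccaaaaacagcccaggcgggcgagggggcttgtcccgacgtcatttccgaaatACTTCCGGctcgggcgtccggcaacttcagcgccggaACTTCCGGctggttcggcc
Cox7a1: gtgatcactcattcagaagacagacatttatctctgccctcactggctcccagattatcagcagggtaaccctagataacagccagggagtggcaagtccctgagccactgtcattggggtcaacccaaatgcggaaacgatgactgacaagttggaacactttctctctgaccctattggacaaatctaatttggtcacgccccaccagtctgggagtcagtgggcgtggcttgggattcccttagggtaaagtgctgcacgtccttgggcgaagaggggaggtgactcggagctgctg
Cox8b: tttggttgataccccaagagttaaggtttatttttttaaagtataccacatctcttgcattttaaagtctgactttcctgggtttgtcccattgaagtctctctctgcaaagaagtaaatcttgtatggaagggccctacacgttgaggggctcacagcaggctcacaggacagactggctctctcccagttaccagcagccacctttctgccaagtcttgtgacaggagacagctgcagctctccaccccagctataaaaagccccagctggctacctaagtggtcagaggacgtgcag
The windows of *Cox7a1* and *Cox8b* held no match to these motifs, or to those of ERRA (TCAAGGTCA) and YY1 (AAGATGGCG), searched on both strands. Nor did that of *Cox7a2* (chr9:79759804-79760103, minus strand), the widely expressed partner of *Cox7a1*, which is not printed. The motifs thus did not separate the widely expressed from the muscle forms. Over 77 windows of 72 members, 13% held the NRF1 letters, against 1.75% of all 32851 promoter windows in the table. The YY1 letters were in 10.4% of the members' windows and 1.4% of all, the GABPA letters in 6.5% and 3.89%, and the ERRA letters in 1.3% and 0.42%. A match is a description of the sequence and no evidence of binding.

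The levels of the 3 muscle forms differed more between libraries of a group than between groups. *Cox6a2* had 253, 459, 451, 562 and 369 CPM in WT 1, 4, 7, 10 and 13, and 496, 433, 312, 496 and 417 CPM in non-lesional 3, 6, 9, 12 and 15. In lesional 2, 5, 8, 11 and 14 it had 375, 418, 455, 91.8 and 807 CPM. The lesional libraries thus held both the lowest and the highest value of the series, around a mean close to that of WT. *Cox7a1* and *Cox8b* had 17.6 and 15.5 CPM in lesional 11 and 120 and 148 CPM in lesional 14, and between 46.6 and 114 CPM in all other libraries. The log2 fold changes of *Cox6a2*, *Cox7a1* and *Cox8b* between lesional and WT skin were 0.03, -0.06 and -0.05, with standard errors of 0.42, 0.38 and 0.41. They were 0.30, 0.19 and 0.22 without lesional 11, and -0.32, -0.35 and -0.37 without lesional 14.

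Across the 15 libraries, the CPM of each muscle form was set against the summed CPM of 18 skeletal muscle markers such as *Acta1* and *Ckm*. Both were taken as log2 values. Pearson's r was 0.95 for *Cox6a2*, 0.97 for *Cox7a1* and 0.98 for *Cox8b* (permutation p = 1e-05 each, the smallest that 100000 permutations can give, and 2e-05 adjusted over 6 subunits). Spearman's rho was 0.81, 0.88 and 0.92 (permutation test, adjusted p = 0.0011, 0.00012 and 6e-05). Without lesional 11 and lesional 14, the libraries farthest from the median of the markers, r was 0.77, 0.88 and 0.88 over 13 libraries. The widely expressed partners did not follow the markers. *Cox7a2* gave r = 0.19 and rho = 0.30 (permutation test, adjusted p = 0.44 and 0.28), and *Cox8a* gave r = -0.25 and rho = -0.33 (permutation test, adjusted p = 0.44 and 0.28). *Cox6a1* had r = -0.71 (permutation test, adjusted p = 0.012), -0.52 without those 2 libraries, and rho = -0.41 (permutation test, adjusted p = 0.20). Its highest levels, 349 and 305 CPM, were in lesional 11 and 2, the libraries with the keratins of hyperplastic epidermis, against 159 to 227 CPM elsewhere. The libraries may not all be independent if lesional and non-lesional samples share mice, and no correlation within a group of 5 libraries was computed.

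**Figure D3:**
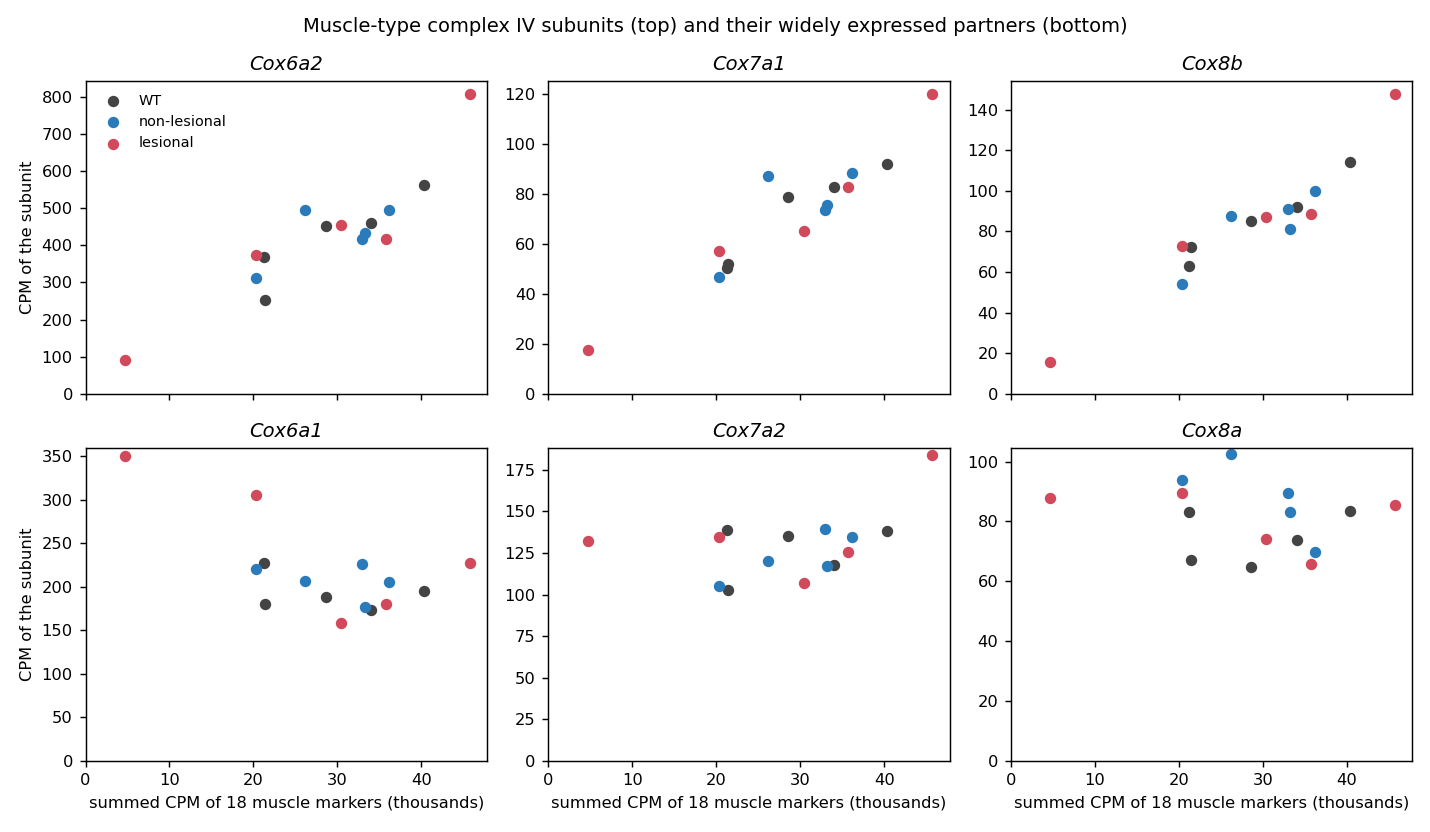
CPM of 6 complex IV subunits (y axes) against the summed CPM of 18 skeletal muscle markers (x axes, scaled as labelled), with 1 point per library, coloured by group. The muscle forms *Cox6a2*, *Cox7a1* and *Cox8b* (top) have 91.8, 17.6 and 15.5 CPM in lesional 11, the library lowest in the markers, and 807, 120 and 148 CPM in lesional 14, the highest. Their partners are in the bottom row.

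*Cox4i2* and *Cox6b2* were minor partners in complex IV. *Cox4i2*, the form induced by low oxygen, took 0.219% to 1.14% of the counts it shares with *Cox4i1*, and *Cox6b2*, known from testis, took 0.896% to 4.38% with *Cox6b1*. Their shares overlapped between all groups. *Ndufa4l2*, a paralogue of *Ndufa4*, was nearer to its partner, with 20.4 to 46.2 CPM over the 15 libraries against 19.4 to 78.0 CPM, and it was the higher of the pair in WT 13 and lesional 14. *Cox5a*, a subunit near the core of complex IV, had 182 ± 33 CPM in WT, 199 ± 36 CPM in non-lesional and 207 ± 30 CPM in lesional skin. *Cox7c* had 20.8 ± 6.3 CPM in lesional skin against 15.6 ± 1.3 CPM in WT (SD, n = 5 each). Its log2 fold change was 0.40 (standard error 0.22, edgeR adjusted p = 0.93), and 0.24 without lesional 11. In *Cox7c*, 73.3% of the 50-base windows of the last 300 transcript bases also occur in other genes' transcripts, so its counts are uncertain. Without the muscle forms, the members of all complexes summed to 8089 ± 1040 CPM in WT, 8683 ± 714 CPM in non-lesional and 8745 ± 799 CPM in lesional skin.

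Complex V makes ATP. Its 17 members summed to 2336 ± 318 CPM in WT, 2543 ± 182 CPM in non-lesional and 2515 ± 108 CPM in lesional skin, with median log2 fold changes of 0.11, 0.10 and -0.030. The head subunits *Atp5a1* and *Atp5b*, which carry the catalytic sites, had 406 and 322 CPM, and the central stalk subunit *Atp5c1* had 54.4 CPM. The most abundant of all members was *Atp5g3* at 700 CPM. It is 1 of 3 genes for the c subunit of the rotor, and took 98.7% to 99.6% of their counts, against 3.67 CPM for *Atp5g1* and 1.24 CPM for *Atp5g2*. In *Atp5g1* and *Atp5g2*, 20.3% and 41.4% of the 3′ windows occur in other genes' transcripts, against 0% in *Atp5g3*, so the counts of both minor partners and these shares are uncertain. *Atp5mpl*, a small membrane subunit, had 124 ± 20 CPM in WT, 150 ± 23 CPM in non-lesional and 151 ± 25 CPM in lesional skin. Its log2 fold changes against WT, 0.27 (standard error 0.13) and 0.28 (standard error 0.16), had edgeR adjusted p = 0.9998 and 0.93.

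The largest estimate of any member was that of *Atp5md*, a small subunit of the ATP synthase dimer, between lesional and non-lesional skin. It had 12, 13.2, 20.2, 15.2 and 16.2 CPM in non-lesional 3, 6, 9, 12 and 15, and 12.7, 12.3, 13.6, 9.03 and 1.46 CPM in lesional 2, 5, 8, 11 and 14. The groups overlapped, and lesional 14 stood far below the others. The log2 fold change was -0.63 (standard error 0.37, edgeR adjusted p = 0.97), and -0.36 without lesional 14.

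The 9 assembly and supercomplex proteins were among the least abundant members, from 5.99 CPM for *Ndufaf6* to 47.8 CPM for *Ndufaf4*. They summed to 161 ± 22 CPM in WT, 167 ± 6.7 CPM in non-lesional and 171 ± 16 CPM in lesional skin. Within them, *Ndufaf8* had the smallest p between lesional and WT skin, where its log2 fold change reached 0.39 (standard error 0.18, edgeR adjusted p = 0.93). *Ndufaf5* had 8.04 ± 2.37, 9.73 ± 1.55 and 9.07 ± 2.67 CPM in WT, non-lesional and lesional skin, and *Ndufaf2* had 12.5 ± 3.0, 11.8 ± 2.1 and 10.03 ± 1.5 CPM (SD, n = 5 each), with overlapping values. The median log2 fold changes of the group were 0.060, -0.12 and -0.10.

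WT 1, without which the members' medians against WT were near 0, was low across the complexes. Over the 82 tested members, WT 1 was the lowest of the 15 libraries for 35 (42.7%), whereas it was the lowest for 7.97% of 13461 genes. Its members lay at a median of -0.39 on the log2 scale from their own median over the libraries. Non-lesional 9 and WT 13 followed at -0.22 and -0.16. At the other end, lesional 14 was the highest library for 37 members (45.1%), against 13.3% of all genes, with a median of 0.21. Lesional 11, which was the lowest or the highest library for 21.7% and 21.8% of all genes, was so for 10 and 4 members, 12.2% and 4.88%. Muscle markers were lowest in lesional 11, at 4693 CPM, followed by lesional 2, non-lesional 9, WT 13 and WT 1 at 20316, 20318, 21241 and 21391 CPM. The members' medians in these 5 libraries were -0.11, -0.042, -0.22, -0.16 and -0.39. The other 10 libraries had 26189 to 45749 CPM of the markers and medians of -0.039 to 0.21, with lesional 14 the highest in both. With a muscle score as covariate the medians of the log2 fold changes were 0.068, 0.098 and 0.025 in the 3 comparisons, against 0.082, 0.093 and 0.013 without it, and again 0 members were called. The part of muscle in the members' levels within single libraries was not tested. WT 1 also stood apart by transcript length. Across 9695 genes of at least 10 CPM, the rank correlation between a gene's deviation and the length of its transcript was 0.275 in WT 1, and between -0.144 and 0.081 in the other libraries. Its part in the low level of the members in WT 1 was not tested.

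**Figure D4:**
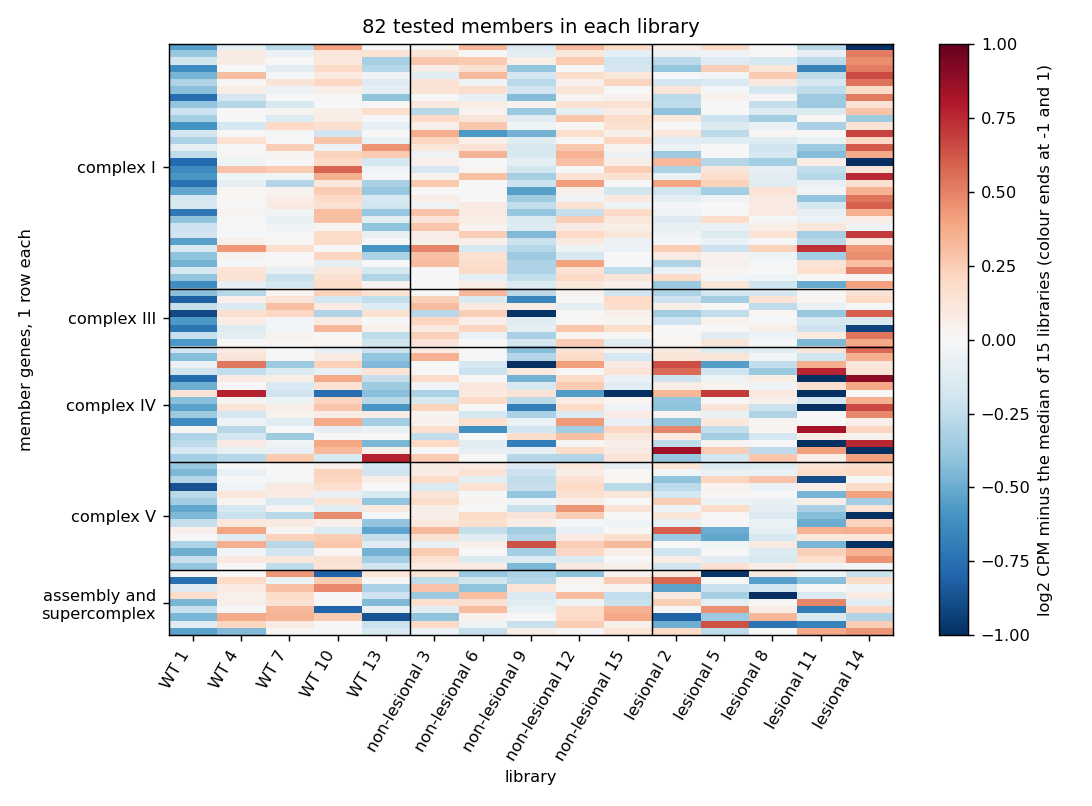
Log2 CPM of the 82 tested members (rows, grouped by complex) minus their median over the 15 libraries (columns), with blue below and red above the median. WT 1 is blue and lesional 14 red through most of all complexes, with medians of -0.39 and 0.21, and a few rows of lesional 14 are dark blue.

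Lesional 14 was not high for all members. 6 of them, *Atp5j*, *Atp5md*, *Ndufa1*, *Ndufa4*, *Ndufb3* and *Uqcrfs1*, were over 0.8 below their median there, from -0.92 for *Uqcrfs1* to -2.55 for *Atp5md*. The last 300 bases of their transcripts held 29.3% to 41.7% GC (median 36.5%), against a median of 45.3% in the other 76 members. Across 9695 genes of at least 10 CPM, the rank correlation between a gene's deviation and this GC content was 0.388 in lesional 14, and between -0.178 in WT 1 and 0.119 in the other libraries. Across 77 members it was 0.505 in lesional 14, and between -0.326 in non-lesional 9 and 0.323 in WT 7 in the others. Genes are not independent replicates, and the 6 members were picked by their levels in that library. GC content of the 3′ end thus moved with the level of the members in lesional 14, and its part in the lesional values was not tested.

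**Figure D5:**
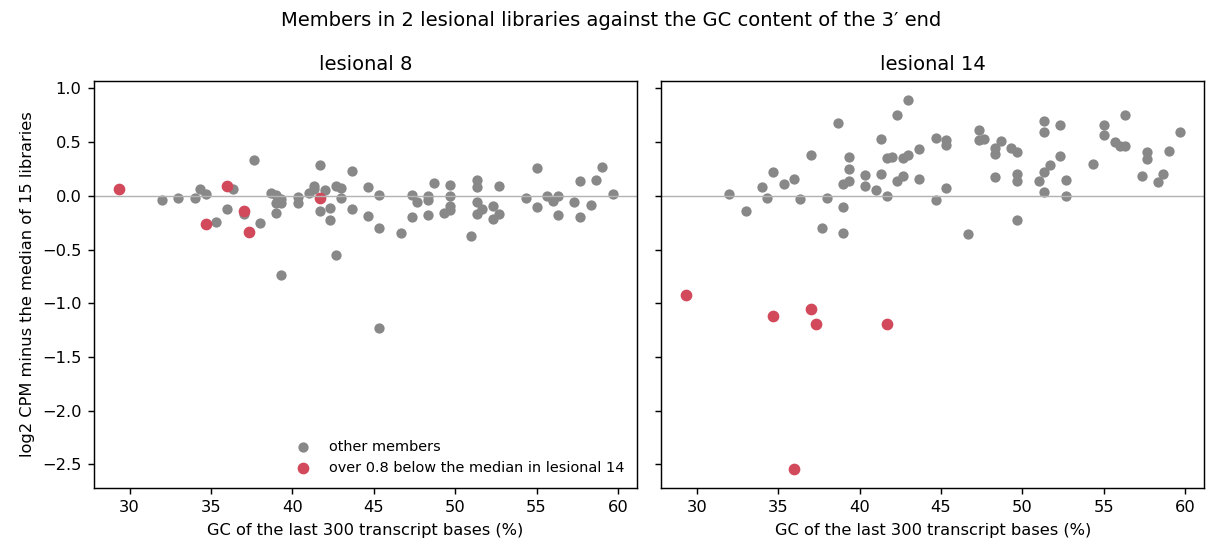
Log2 CPM of the 82 tested members minus their median over 15 libraries (y axis) against the GC percentage of the last 300 bases of the transcript (x axis), in lesional 8 for comparison and in lesional 14. The 6 members over 0.8 below their median in lesional 14 (red) have 29.3% to 41.7% GC there, and lie between -0.34 and 0.09 in lesional 8.

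Low counts of some members are uncertain. *Ndufs3* and *Ndufs5* had 39 and 45 counts over all 15 libraries, and 53.0% and 54.6% of their 3′ windows occur in other genes' transcripts. *Cox5b*, a core regulatory subunit of complex IV with no such copies, had 171 counts. Among the 15 members under 15 CPM, 5 had copies of a 3′ window elsewhere, and among the other 72 members 16 did. Exons overlap a further gene of the same strand in 5 members and of the opposite strand in 28, for example *Itgad* at *Cox6a2*. The counting parameters listed in the methods include no strand option.

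Related genes outside the symbol rule were compared in the same fits. Of 4 complex II genes, 3 were tested and none was called in any comparison by edgeR at an adjusted p under 0.05. The smallest unadjusted p, 0.0081, was that of *Sdhc*, the membrane anchor that helps bind the haem, whose lesional libraries lay at -0.55 on the log2 scale from the non-lesional ones (standard error 0.18, edgeR adjusted p = 0.97). Its unscaled counts were 213, 152, 235, 108 and 122 in lesional 2, 5, 8, 11 and 14. In non-lesional 3, 6, 9, 12 and 15 they were 291, 271, 213, 314 and 236. The lowest were those of lesional 11 and lesional 14, which stood apart as described above. Cytochrome c and cytochrome c1 together had 58.0 ± 13.6, 64.5 ± 12.6 and 62.3 ± 13.3 CPM in WT, non-lesional and lesional skin (SD, n = 5 each). Among 13 mitochondrially encoded chain genes, 7 were tested. They summed with the others to 63250 ± 12550, 67260 ± 8307 and 66030 ± 10440 CPM in WT, non-lesional and lesional skin. *mt-Atp6*, *mt-Atp8*, *mt-Co3*, *mt-Nd3* and *mt-Nd4l* were listed at 0 in every library, and *mt-Co2* had 2 counts over all libraries. The sum is thus not the level of the whole mitochondrially encoded set. Of 71 tested genes of the mitochondrial ribosome, 3, 5 and 2 were higher at an unadjusted p under 0.05 in the 3 comparisons and 0 lower in each, where 1.85%, 3.24% and 2.89% of all genes were higher, with medians of 0.11, 0.11 and 0.035. Of 16 genes of pyruvate dehydrogenase and the citric acid cycle, 16, 15 and 15 were tested in the 3 comparisons. Of those tested, 0 had an unadjusted p under 0.05 in any comparison, and edgeR called 0 of them after adjustment. Of 15 tested genes of a glycolysis list that includes the glucose transporter *Slc2a1*, 0, 1 and 1 were higher at that level and 0 lower, beside the same shares of all genes. *Slc2a1* had 188 and 353 counts in lesional 2 and 11, against 19 to 89 in the other libraries. In the same list *Gapdh* and *Pgk1* had at most 10 and 4 counts in a library, and *Pgam1* had 0 in all.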

How the data were processed

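Gene expression was measured in 15 skin libraries, 5 in each group, prepared with the QuantSeq 3′ forward kit. The authors clipped adaptors with cutadapt 2.10, mapped the reads to GRCm38 and spike-in sequences with Subread, kept high-quality primary matches with SAMtools 1.7-2 and counted matches over exons per gene with featureCounts 2.0.1, a match over several genes being counted for each. The deposited counts are not normalized, and the deposited CPM are those counts over the total of a library. The annotation release is not given in the sources used here. The methods name the same low RNA integrity limit both as the ground for excluding samples and as a property of those included, so RNA quality per library is unclear.

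Each pair of groups was fitted on its 10 libraries with edgeR 4.0.16 in R 4.3.3 (TMM, filterByExpr, robust quasi-likelihood F-test, Benjamini-Hochberg adjustment over all genes tested, threshold 0.05). Standard errors were derived from the fold change and the square root of F. CPM printed were computed from the counts with library sizes scaled by TMM over all 15 libraries, and deviations per library from their log2 values with a prior count of 2. The genes named are the tissue isoforms with their partners, the core subunits, the extremes of abundance, the 2 smallest p per complex and comparison, and others chosen after their values were seen: *Ndufa1*, *Ndufb3*, *Ndufs5* and *Sdhc*. Members and lists were chosen with earlier results of these data known. Each group of 5 values was examined for an outlying library with Dixon's test. GC content was that of the longest protein-coding transcript of GENCODE vM21, and promoter sequences came from RefSeq (GRCm38.p6), where 72 of 87 members had one that is used here.

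Alternatives were DESeq2 1.42.0, DESeq2 size factors or upper quartile normalization in edgeR, no filter on low counts, a minimum of 10 counts per library, all 15 libraries in 1 fit, no robust estimation, a muscle score as covariate, and leaving out each library. Leaving out WT 1, lesional 11 and lesional 14 together was added after seeing the data.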

Additional observations from a re-analysis of the deposited data

Results flagged for a closer look

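In 234 groups of 5 libraries, a library far from the other 4 by Dixon's test was found 21 times, where chance flags about 1 in 20 groups. These groups are not independent, since they use the same libraries and several sums share genes, so the 21 cannot be weighed against that rate. For the members, lesional 14 stood above the other lesional libraries in the sums of all members (11240 CPM against 8530 to 9032), of complex I (4190 CPM), complex III (1310 CPM) and complex IV (2968 CPM), of the members other than the muscle forms (10160 CPM), and in *Uqcrh* (592.2 CPM). WT 1 stood below the other WT libraries in *Uqcrc2* (137.8 CPM) and *Ndufs8* (25.23 CPM), and non-lesional 9 below its group in the sum of complex I (2760 CPM against 3369 to 3492) and in *Cox4i1* (144.2 CPM). Non-lesional 3 stood above its group in *Ndufs6* (138.5 CPM) and *Ndufs3* (3.563 CPM), lesional 5 in *Cox4i2* (1.539 CPM) and lesional 2 in *Ndufv2* (97.08 CPM).

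Among other gene lists, WT 1 stood apart in markers of the hair follicle (1278 CPM) and of hyperplastic epidermis (1298 CPM). Non-lesional 3 was high in the latter (957.5 CPM) and in neutrophil markers (218.2 CPM), non-lesional 12 in hair follicle markers (50.09 CPM) and non-lesional 15 in macrophage markers (431.1 CPM). Non-lesional 9 was low in genes of the mitochondrial ribosome (2055 CPM). The part of these cell types in the members' levels was not tested.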

How the results depend on the processing

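In the 18 alternative fits planned for each comparison and in the 1 added, 0 members passed an adjusted p under 0.05, so no call of a member depended on the setting. Over all genes, the fits of non-lesional against WT skin called 18 of 27255 genes with no filter on low counts, 5 of 13217 without non-lesional 6 and 1 of 27202 with DESeq2, that of lesional against WT skin called 14 of 26979 with DESeq2, and the other fits called 0. Over the settings other than leaving out a library, the median log2 fold change of the members ran from 0.068 to 0.084 between non-lesional and WT skin, from 0.072 to 0.098 between lesional and WT skin, and from -0.021 to 0.025 between lesional and non-lesional skin. Leaving out 1 library gave 0.012 to 0.15, 0.0090 to 0.15 and -0.083 to 0.039. With WT 1, lesional 11 and lesional 14 left out together, chosen after seeing the data, the medians were 0.012, -0.044 and -0.046. Members with an unadjusted p under 0.05 between non-lesional and WT skin were 2 in the main fit, 5 without non-lesional 9 and 10 without WT 10, all higher, where 1.85%, 1.94% and 2.32% of all genes were higher. Between lesional and WT skin, 3 were higher with all 15 libraries in 1 fit, with the muscle covariate and without WT 10. There 4.84%, 3.20% and 2.40% of all genes were higher. Between lesional and non-lesional skin, 3 were lower without lesional 14, where 2.22% of all genes were. Without lesional 5, 2 were higher and 1 lower, against 4.91% and 2.73% of all genes. Upper quartile normalization moved the median of all genes to -0.031 between lesional and non-lesional skin. No paired analysis was run, because the groups share no replicate numbers and the sources used here do not say which libraries belong together. Counts per member (median 2801 over all libraries) limit the 15 members under 15 CPM most, and PCR copies were not removed, so counting intervals are too narrow.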
